A study of Mus musculus with 8 samples.

Results

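Systemic iron handling was followed through 10 genes in mouse liver: the hepcidin genes Hamp and Hamp2, their upstream regulators Bmp6, Hfe and Tfr2, the uptake receptor Tfrc, the plasma carrier Trf, the exporter Slc40a1, and the ferritin subunits Fth1 and Ftl1. They were chosen by name, and each of the 10 had 1 row among the 27110 genes of the deposited table. The tested livers, named LKO, carry a liver-restricted deletion of Pkd1l1, a polycystin-family gene, and were compared with Fl/Fl livers. There were 4 female LKO libraries (replicates 3, 4, 12 and 13), 3 female Fl/Fl libraries (replicates 5, 7 and 9) and 1 male Fl/Fl library (replicate 10). All were taken at week 7, carry the treatment label NT and hold total liver RNA; the driver of the deletion and the strain are not given in the sources used here. Hepatocytes and cholangiocytes are the labelled cell types, and there is no male LKO liver.

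Hepcidin is a small hormone made by hepatocytes that binds the iron exporter ferroportin, the product of Slc40a1, and causes its loss from the cell surface. The liver sets hepcidin through bone morphogenetic proteins from sinusoidal endothelium, which act on SMAD factors, through sensing of iron-loaded transferrin by Hfe and Tfr2, and through interleukin 6 and STAT3. Inside cells, iron regulatory proteins bind hairpins called iron-responsive elements: in a 5′ UTR these restrain translation, as in ferritin, and in the 3′ UTR of Tfrc they stabilise the RNA.

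The hairpins are shown because they divide these genes by where the regulator acts. A search for a bulged C, 5 base pairs and a 6-base CAGTGN loop, on the sense strand of GENCODE M21 transcripts (GRCm38), found a match in a UTR of 4 of the 10 genes, against 0.138% of 22500 protein-coding genes for the 5′ UTR and 0.64% for the 3′ UTR. Fth1 (chr19:9982731-9982760, plus strand), Ftl1 (chr7:45459779-45459808, minus strand) and Slc40a1 (chr1:45925465-45925494, minus strand) held 1 match each in the 5′ UTR. Tfrc held 4 in the 3′ UTR, of which the first lies at chr16:32631218-32631247 and the second at chr16:32631597-32631626, both on the plus strand. Capitals mark the bulged C and the loop in each 30-base window.
Fth1: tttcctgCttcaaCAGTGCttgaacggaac
Ftl1: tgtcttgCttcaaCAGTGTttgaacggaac
Slc40a1: ccaacttCagctaCAGTGTtagctaagttt
Tfrc, first: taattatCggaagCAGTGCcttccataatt
Tfrc, second: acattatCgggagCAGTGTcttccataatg
A match is a description of the letters and no measure of binding.

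Hamp and Hamp2 are neighbouring paralogs on chromosome 7, and their promoters are shown because the hormone genes varied most among these livers. The 250 bases before each RefSeq start (GRCm38.p6, minus strand) lie at chr7:30944030-30944279 for Hamp and chr7:30924182-30924431 for Hamp2, and 227 of 247 aligned bases were identical (91.9%). Capitals mark the BMP-responsive letters GGCGCC and the STAT letters TTCNNNGAA, searched on both strands with no overlap between them.
Hamp: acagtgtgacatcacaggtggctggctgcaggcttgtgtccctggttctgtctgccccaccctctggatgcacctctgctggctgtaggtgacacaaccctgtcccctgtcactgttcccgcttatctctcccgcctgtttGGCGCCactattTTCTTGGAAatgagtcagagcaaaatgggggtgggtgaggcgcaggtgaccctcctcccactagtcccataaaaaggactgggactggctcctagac
Hamp2: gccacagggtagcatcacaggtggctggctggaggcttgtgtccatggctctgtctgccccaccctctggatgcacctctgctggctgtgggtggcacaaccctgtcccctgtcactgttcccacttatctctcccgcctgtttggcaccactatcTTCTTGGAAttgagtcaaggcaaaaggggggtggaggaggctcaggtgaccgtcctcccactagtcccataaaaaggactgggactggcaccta
Hamp held 1 match of each kind, and Hamp2 held the STAT letters alone. GGCGCC was present in 9.59% and TTCNNNGAA in 7.02% of 32851 promoters of the same length. Of the other genes with a promoter in that RefSeq table (8 of the 10 had one; Trf and Slc40a1 had none), Tfrc held GGCGCC in 1 of its 2 promoters and none held the STAT letters.

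The libraries held 71491723 to 76622375 counted reads, and 3 reads in a library were worth 0.0385 to 0.0428 CPM, the unit in which a gene's reads are set against the TMM-scaled size of its library. Pkd1l1 had 0 to 2 reads in LKO and 0 to 1 read in Fl/Fl libraries, below that floor throughout, so it checked no genotype label. Hepatocyte markers summed to 140537 to 157210 CPM in LKO and 149473 to 153571 in female Fl/Fl, led by Alb, and cholangiocyte markers to 114 to 128 CPM in LKO and 98.9 to 118 CPM in female Fl/Fl. Slc10a2, a bile acid transporter, gave 34.3% of the cholangiocyte sum averaged over all 8 libraries, the male included. It rose (47.9 ± 6.21 CPM in LKO, 21.2 ± 3.69 CPM in female Fl/Fl, SD, n = 4 and 3, edgeR adjusted p = 0.00859), with 71.8 CPM in Fl/Fl 10. Without Slc10a2 the sum was 68.5 to 79.8 CPM in LKO and 80.8 to 98.0 CPM in female Fl/Fl. With Slc10a2 included, 2 of the 11 tested cholangiocyte markers had positive fold changes (median log2 -0.18), and Slc10a2 was 1 of these 2. Krt19, a defining cholangiocyte gene, had 114 to 186 reads in LKO and 132 to 167 reads in female Fl/Fl. No labelled batch was available. Immediate early RNA, which includes Fos and Jun, differed between the female groups: its 20 markers summed to 896 to 1719 CPM in LKO against 2320 to 4173 CPM in female Fl/Fl, and to 705 CPM in the male Fl/Fl 10. Of these markers 2 passed the test, both lower in LKO, with Jun among them (edgeR adjusted p = 0.0369) and Fos not (0.0917), and their part in the results below was not tested. The male library stood apart, with 932 CPM of the acute phase gene Saa1 against 15.7 to 23.2 in LKO and 5.42 to 8.76 in female Fl/Fl. Saa1 was also higher in LKO than in female Fl/Fl (log2 1.29 ± 0.20, SE, edgeR adjusted p = 0.0204). Of 20 acute phase markers 3 passed the test, 2 higher and 1 lower in LKO, against 1.41% of all tested genes.

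None of the 10 iron genes passed the test between LKO and female Fl/Fl livers at an adjusted p of 0.05, where 1.41% of the 16420 tested genes did, 1.02% higher and 0.396% lower (edgeR's quasi-likelihood test with a sex term, Benjamini-Hochberg adjustment over all tested genes). At an unadjusted p under 0.05 there was 1, Ftl1, against 16.1% of all tested genes. DESeq2 called 1 of the 10, again Ftl1, where it called 6.24% of the genes to which it gave an adjusted p, and limma voom called 0 of the 10 and 1.3% of all tested genes. All 10 passed the filter on low counts. The median log2 fold change was 0.11 for the 10 genes and -0.0032 for all tested genes. Fold changes were above 0 in 7 of the 10, and in 49.5% of all tested genes. In 1 of the 10, Ftl1, the LKO and female Fl/Fl values did not overlap, which held for 15.1% of tested genes. The Ftl1 values were higher in LKO, as they were without overlap in 8.85% of tested genes, and none of the 10 was lower without overlap, as 6.22% of tested genes were. In bulk liver, fewer cells of a type and less RNA per cell cannot be told apart.

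**Figure D1:**
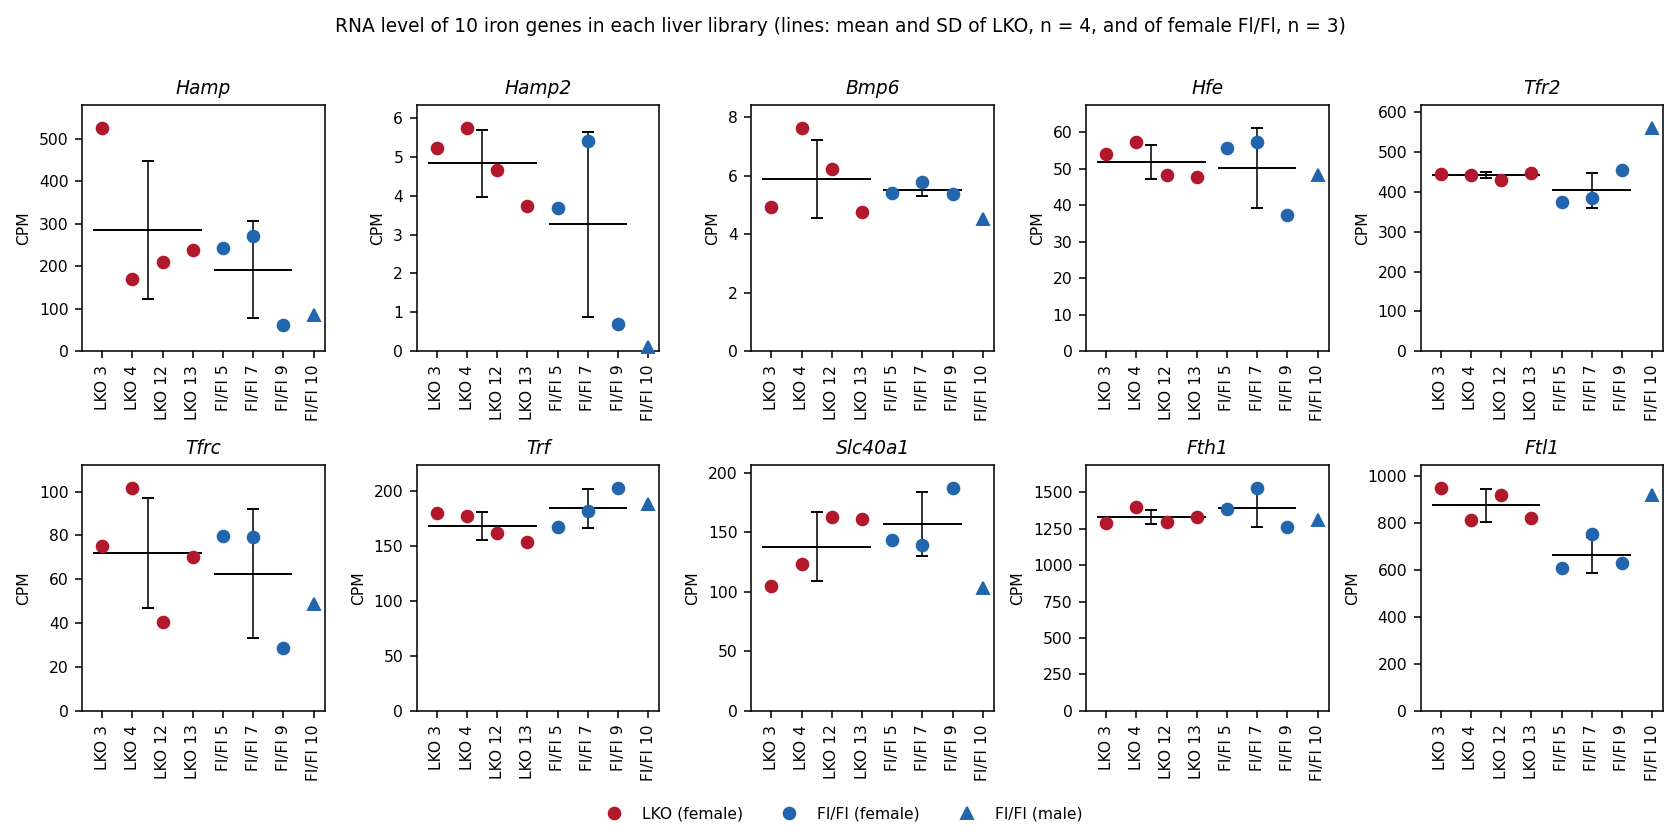
Expression of the 10 iron genes in each library in CPM (linear axes from 0), with LKO in red, Fl/Fl in blue and the male library as a triangle; lines and bars give the mean and SD of LKO (n = 4) and female Fl/Fl (n = 3). Ftl1 is the panel in which the red points (812 to 951 CPM) all lie above the female blue points (610 to 753 CPM), and Hamp, Hamp2 and Tfrc are low in Fl/Fl 9.

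Hamp, which encodes hepcidin (ENSMUSG00000050440, chromosome 7, 30942368 to 30944032, mm10), stood at 526, 169, 209 and 237 CPM in LKO 3, 4, 12 and 13, against 242, 272 and 62.1 CPM in Fl/Fl 5, 7 and 9. Fl/Fl 10, the male, had 85.2 CPM. LKO 3 was the highest and Fl/Fl 9 the lowest of the 8 libraries, and the other 3 LKO livers lay between Fl/Fl 9 and Fl/Fl 5. The means were 285 ± 163 CPM in LKO and 192 ± 113 CPM in female Fl/Fl (SD, n = 4 and 3). The log2 fold change was 0.57 ± 0.66 (SE; 95% interval -1.07 to 2.21; edgeR adjusted p = 0.742). The interval spans changes of more than 1 on the log2 scale in the LKO-lower direction and more than 2 in the LKO-higher direction, so these libraries set no close limit on hepcidin RNA. The fitted value was 0.09 without LKO 3, 0.15 without Fl/Fl 9 and 0.90 without Fl/Fl 7.

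Hamp2 (ENSMUSG00000056978, chromosome 7, 30922372 to 30924681) encodes the second mouse hepcidin-like peptide. It stood at 5.22, 5.75, 4.66 and 3.72 CPM in LKO 3, 4, 12 and 13, against 3.67, 5.41 and 0.705 CPM in Fl/Fl 5, 7 and 9. The male library held 0.0998 CPM, from 7 reads. The LKO values lay within a narrow range and overlapped those of Fl/Fl 5 and 7, while Fl/Fl 9 and the male library lay far below. The log2 fold change was 0.57 ± 0.58 (SE; 95% interval -0.82 to 1.96; edgeR adjusted p = 0.698), 0.09 without Fl/Fl 9 and 1.14 without Fl/Fl 7.

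The authors counted the paralogs separately. Their coding sequences were 93.6% identical, and 16.6% of the 50-base words of Hamp transcripts also occurred in Hamp2, so some reads could be assigned to either gene. Both also lie inside the annotated lincRNA Gm44662 of the opposite strand, from which unstranded reads could not be told apart. Hamp2 made up 0.982 to 3.29% of the summed reads in LKO, 1.12 to 1.95% in Fl/Fl females and 0.117% in Fl/Fl 10. The summed reads do not depend on the split. They stood at 175 to 531 CPM in LKO and 62.8 to 277 CPM in female Fl/Fl, a difference of 0.69 in mean log2(CPM + 0.5). A two-sided exact permutation test, with 35 ways to divide the 7 female libraries, gave p = 0.543, where the smallest p possible is 0.0286. The difference was 0.35 without LKO 3 and 0.01 without Fl/Fl 9. LKO 3 was highest in Hamp without being highest in Hamp2, where LKO 4 was.

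Bmp6, the endothelial ligand that reports liver iron to hepatocytes (ENSMUSG00000039004, chromosome 13, 38345107 to 38500302), stood at 4.94, 7.64, 6.24 and 4.75 CPM in LKO 3, 4, 12 and 13, against 5.41, 5.77 and 5.38 CPM in Fl/Fl 5, 7 and 9. Fl/Fl 10, the male, held 4.52 CPM. The female Fl/Fl values lay inside the LKO range. The log2 fold change was 0.09 ± 0.18 (95% interval -0.30 to 0.49; edgeR adjusted p = 0.850), and -0.05 without LKO 4. Its 3′ end overlaps Txndc5 on the other strand by 224 bases. The antisense gene 4930579J19Rik, also on the other strand, overlaps 7657 bases within the Bmp6 gene. No source states strand-aware counting, so reads in both stretches are uncertain. LKO 3, the library with the most Hamp, and LKO 13, with 237 CPM of Hamp, both held less Bmp6 than each female Fl/Fl library. The 12 sinusoidal endothelial markers, which mark the cells that make Bmp6, summed to 525 to 611 CPM in LKO and 524 to 626 CPM in female Fl/Fl, with 0 of 12 past the test.

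Hfe encodes an MHC class I-like protein that takes part in iron sensing (ENSMUSG00000006611, chromosome 13, 23702034 to 23710854). Its levels were 54.2, 57.3, 48.4 and 47.7 CPM in LKO 3, 4, 12 and 13, against 55.7, 57.4 and 37.5 CPM in Fl/Fl 5, 7 and 9. Fl/Fl 10 held 48.3 CPM. The groups overlapped, and Fl/Fl 9 alone lay below the LKO range (log2 0.05 ± 0.14, 95% interval -0.27 to 0.37, edgeR adjusted p = 0.912), and the log2 value was -0.13 without Fl/Fl 9. Tfr2, the liver transferrin sensor (ENSMUSG00000029716, chromosome 5, 137569840 to 137587481), held 444, 442, 431 and 449 CPM in LKO 3, 4, 12 and 13, against 374, 384 and 455 CPM in Fl/Fl 5, 7 and 9. The LKO livers were close to each other and lay above Fl/Fl 5 and 7 and below Fl/Fl 9. The log2 fold change of Tfr2 was 0.13 ± 0.09 (95% interval -0.08 to 0.33, edgeR adjusted p = 0.560). The male library held 561 CPM, the highest of the 8.

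Tfrc, the receptor that brings iron-loaded transferrin into cells (ENSMUSG00000022797, chromosome 16, 32608920 to 32632794), is the gene with the 3′ hairpins. It stood at 75.0, 102, 40.6 and 70.3 CPM in LKO 3, 4, 12 and 13, against 79.9, 79.2 and 28.8 CPM in Fl/Fl 5, 7 and 9. LKO 12 and Fl/Fl 9 were the low libraries of their groups. The ranges overlapped in part, with LKO 4 above the female Fl/Fl range and Fl/Fl 9 below the LKO range. The log2 fold change was 0.20 ± 0.46 (95% interval -0.92 to 1.32, edgeR adjusted p = 0.886), and it was -0.15 without Fl/Fl 9 and -0.01 without LKO 4. Erythroid genes, from cells rich in Tfrc, summed to 55.0 to 77.8 CPM in LKO and 57.2 to 94.9 CPM in female Fl/Fl, and to 201 CPM in Fl/Fl 10, of which Alas2 gave 122 CPM. Tfrc stood at 48.8 CPM in Fl/Fl 10.

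Trf, the plasma iron carrier transferrin (ENSMUSG00000032554, chromosome 9, 103204001 to 103230444), stood at 180, 177, 162 and 154 CPM in LKO 3, 4, 12 and 13, against 167, 182 and 203 CPM in Fl/Fl 5, 7 and 9 and 188 CPM in Fl/Fl 10. The groups overlapped, with the 2 lowest values in LKO and the highest in Fl/Fl 9. The log2 fold change of -0.13 ± 0.10 did not pass (95% interval -0.34 to 0.09, edgeR adjusted p = 0.565). The predicted gene Gm20425 overlaps Trf on the same strand and shares 2012 of its 3441 50-base words but had 0 to 2 reads, so how the shared reads were counted is uncertain. Slc40a1, the exporter ferroportin (ENSMUSG00000025993, chromosome 1, 45908068 to 45926523), held 105, 124, 163 and 161 CPM in LKO 3, 4, 12 and 13, against 143, 139 and 188 CPM in Fl/Fl 5, 7 and 9 and 103 CPM in Fl/Fl 10. LKO 3 and 4 were lower than each Fl/Fl female, while LKO 12 and 13 lay between Fl/Fl 5 and Fl/Fl 9 (log2 -0.18 ± 0.17, 95% interval -0.57 to 0.20, edgeR adjusted p = 0.654). Kupffer cells, which also express ferroportin, had markers summing to 474 to 602 CPM in LKO and 409 to 600 CPM in female Fl/Fl.

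Fth1 encodes the ferritin heavy chain, which oxidises iron for storage (ENSMUSG00000024661, chromosome 19, 9982703 to 9985092). It stood at 1290, 1399, 1299 and 1330 CPM in LKO 3, 4, 12 and 13, against 1388, 1533 and 1264 CPM in Fl/Fl 5, 7 and 9 and 1311 CPM in Fl/Fl 10. The groups overlapped (log2 -0.07 ± 0.10, 95% interval -0.28 to 0.14, edgeR adjusted p = 0.784). Ftl1 encodes the ferritin light chain, which supports mineral formation inside the ferritin shell (ENSMUSG00000050708, chromosome 7, 45457944 to 45459884). It stood at 951, 812, 918 and 823 CPM in LKO 3, 4, 12 and 13, against 610, 753 and 632 CPM in Fl/Fl 5, 7 and 9. Every LKO liver held more Ftl1 RNA than every female Fl/Fl liver. The means were 876 ± 69.3 CPM in LKO and 665 ± 77.0 CPM in female Fl/Fl (SD, n = 4 and 3).

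The Ftl1 difference was 1.32-fold (log2 0.40 ± 0.11, 95% interval 0.16 to 0.64, unadjusted p = 0.00373) and missed the threshold with an edgeR adjusted p of 0.104. It passed with DESeq2 (adjusted p = 0.0215) and in edgeR with no filter on low counts (adjusted p = 0.0370), a setting that called 1.7% of genes. The fold change was positive in each of the 17 other settings (log2 0.27 to 0.49). Fl/Fl 10 held 918 CPM, inside the LKO range, and with no sex term the edgeR adjusted p was 0.657. In the authors' deposited table Ftl1 has a log2 fold change of 0.26 with an adjusted p of 0.654. Of the 50-base words of Ftl1 transcripts, 50.9% also occur in 15 other genes, so reads shared with pseudogenes are uncertain; Ftl1-ps1 had 0.506 to 0.583% of the Ftl1 reads in LKO and 0.368 to 0.465% in female Fl/Fl.

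The same Ftl1 reads were also set against the Fth1 reads of each liver, with no correction for gene length. For each Fth1 read there were 0.737, 0.580, 0.707 and 0.619 Ftl1 reads in LKO 3, 4, 12 and 13, against 0.439, 0.491 and 0.4999 in Fl/Fl 5, 7 and 9. The LKO ratios all lay above the female Fl/Fl ratios, and the male Fl/Fl ratio of 0.700 lay among those of LKO. In FPKM, which takes length into account, the RNA ratio was 0.375 to 0.476 in LKO and 0.284 to 0.323 in female Fl/Fl. This ratio was chosen after its values were seen and is given with no test.

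**Figure D2:**
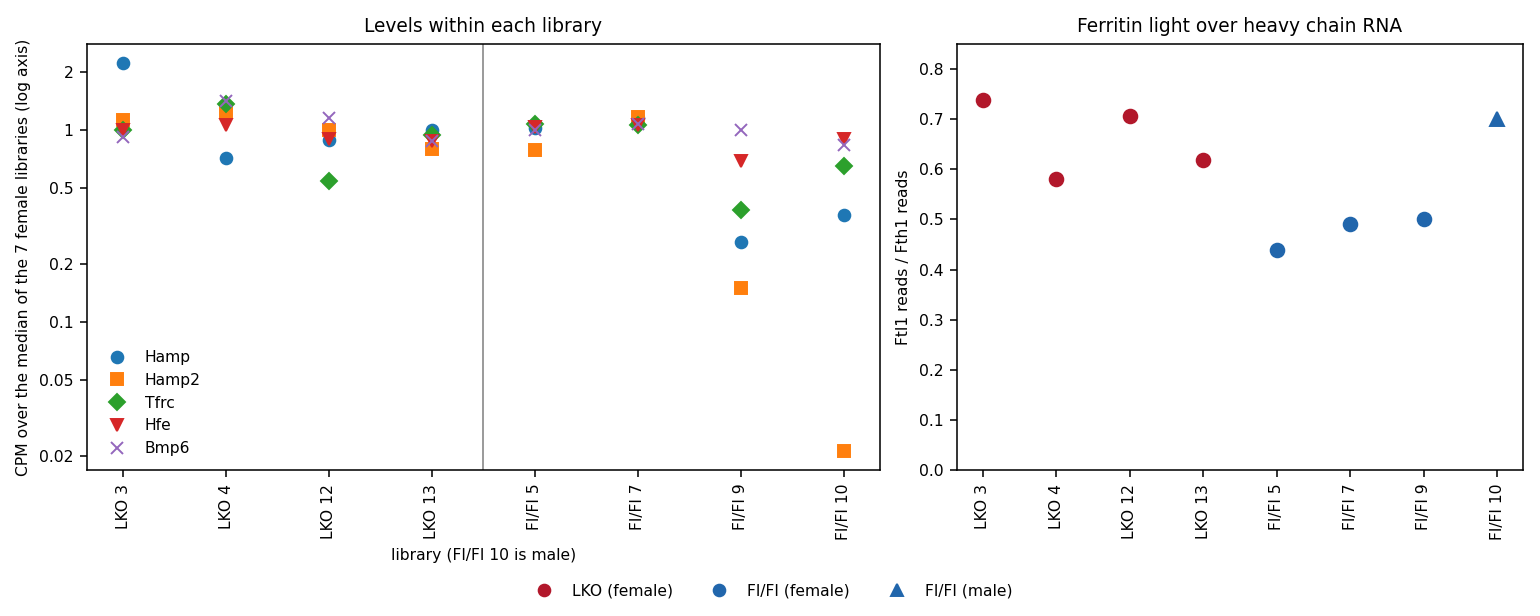
Left, CPM of Hamp, Hamp2, Tfrc, Hfe and Bmp6 in each library relative to the median of the 7 female libraries (log axis); right, Ftl1 reads per Fth1 read (linear axis from 0), with LKO in red and Fl/Fl in blue. On the left Fl/Fl 9 lies low for Hamp, Hamp2, Tfrc and Hfe but not for Bmp6; on the right LKO lies at 0.580 to 0.737 and female Fl/Fl at 0.439 to 0.4999.

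The genes differed widely in how much they varied between livers of one genotype. For Hamp the highest level was 3.11 times the lowest within LKO and 4.37 times within female Fl/Fl, and for Tfrc 2.51 times within LKO and 2.77 times within female Fl/Fl. For Hamp2 it was 1.54 times within LKO and 7.68 times within female Fl/Fl, where Fl/Fl 9 was the low library. For Tfr2 it was 1.04 times within LKO and 1.22 times within female Fl/Fl, and for Fth1 1.08 times within LKO and 1.21 times within female Fl/Fl. The SD of log2 CPM within genotype, pooled over both female groups, was 0.93 for Hamp, 1.00 for Hamp2 and 0.68 for Tfrc, against a median of 0.22 over all tested genes. Only 5.12% of tested genes had a larger SD than Hamp and 4.06% a larger one than Hamp2, while 87.9% had a larger one than Fth1 and 87.3% than Tfr2. Hfe, the other sensor, and Ftl1, the other ferritin subunit, lay between, with 47% and 74.4% of tested genes above them.

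Fl/Fl 9 lay at an end of the female range in 8 of the 10 genes. It held the lowest Hamp, Hamp2, Hfe, Tfrc and Fth1 and the highest Tfr2, Trf and Slc40a1 of the 7 female libraries. Over all tested genes Fl/Fl 9 was at an end of the female range in 33.7%, the largest share of the 7, and LKO 3, at an end in 3 of the 10, was so in 31%. Fl/Fl 9 also held 37.1 CPM of Socs3, a STAT3 target, where Fl/Fl 5 and 7 held 10.3 and 8.94 CPM and the LKO livers 3.59 to 5.57 CPM. It held 30.7 CPM of Fos, where Fl/Fl 5 and 7 held 298 and 264 CPM. The 20 immediate early markers together did not set Fl/Fl 9 apart to that degree. They summed to 2320 CPM in Fl/Fl 9, 4173 CPM in Fl/Fl 5 and 3345 CPM in Fl/Fl 7. Their mean log2 CPM, relative to the mean of all 8 libraries, was 0.84 in Fl/Fl 9, 1.05 in Fl/Fl 5 and 0.70 in Fl/Fl 7. These counts were made after the values were seen, and the part of these genes in the low hepcidin RNA of Fl/Fl 9 was not tested.

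Levels between genes were compared per length, with the authors' FPKM. Over the 7 female libraries Fth1 was highest at 1627 ± 107 FPKM, and its range lay above that of every other gene of the set (SD, n = 7). Hamp at 621 ± 359 and Ftl1 at 608 ± 101 FPKM came next and overlapped each other. Tfr2 followed at 102 ± 8.02 FPKM and Trf at 54.7 ± 5.14 FPKM, each range apart from its neighbours. Slc40a1 at 16.8 ± 3.19, Hfe at 14.9 ± 2.08, Tfrc at 11.4 ± 4.19, Hamp2 at 7.40 ± 3.06 and Bmp6 at 1.52 ± 0.26 FPKM completed the order, and each of these ranges overlapped that of the next.

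**Figure D3:**
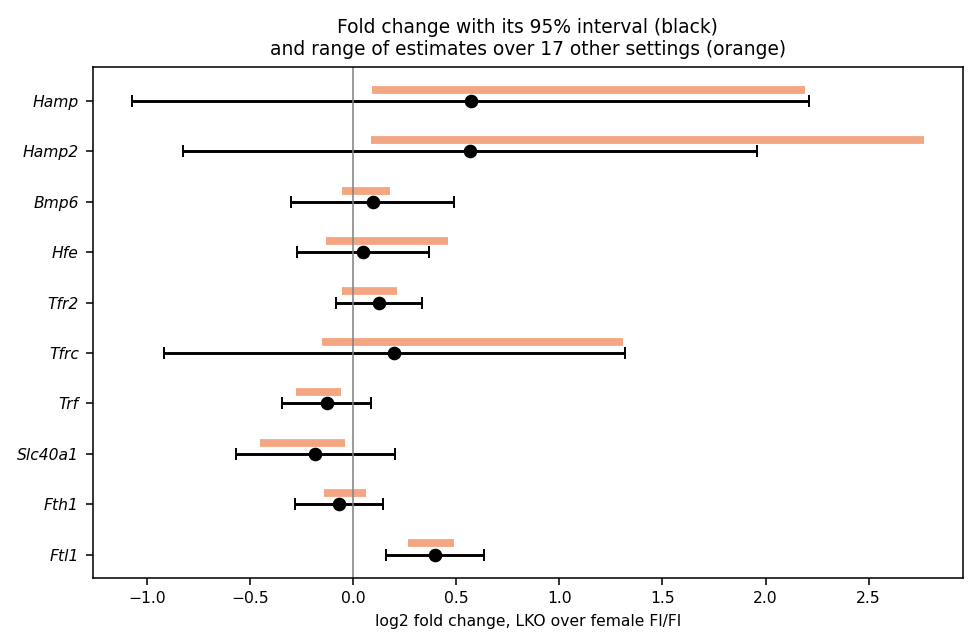
Log2 fold change of LKO over female Fl/Fl for each iron gene (black point) with its 95% interval (black bar), and the lowest to highest estimate over 17 other settings (orange bar). The interval of Ftl1 (0.16 to 0.64) lies above 0, the other 9 intervals include 0, and Hamp, Hamp2 and Tfrc have the widest bars.

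Of 113 tested genes in lists of related iron functions, 1 rose and 1 fell, with a median log2 fold change of 0.02. Over all tested genes 1.02% were called higher and 0.396% lower. Il6ra, the interleukin 6 receptor that feeds STAT3 and hepcidin, rose: it stood at 110, 153, 110 and 139 CPM in LKO 3, 4, 12 and 13, against 61.4, 60.3 and 65.0 CPM in Fl/Fl 5, 7 and 9. The fold was 2.06 (log2 1.04 ± 0.13, edgeR adjusted p = 0.00881). Fl/Fl 10, at 117 CPM, lay within the LKO range. The call was lost without Fl/Fl 5 (edgeR adjusted p = 0.0654), without both Fl/Fl 5 and 7 (0.174), the livers with the most Fos, and with no sex term (0.474). Il6ra was the 1 call among 21 tested ligands, receptors and modifiers of the hepcidin pathway, against 1.41% of all tested genes. Their median log2 was -0.17, and fold changes were positive in 6 of the 21, against 49.5% of all tested genes. An unadjusted edgeR p under 0.05 was found for 9 of the 21, 2 higher and 7 lower, against 16.1% of all tested genes.

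Id2, an inhibitor of basic helix-loop-helix factors and a target of BMP signalling, fell. It held 82.0, 56.1, 75.6 and 58.4 CPM in LKO 3, 4, 12 and 13, against 118, 117 and 97.7 CPM in Fl/Fl 5, 7 and 9 (log2 -0.70 ± 0.14, edgeR adjusted p = 0.0432). Fl/Fl 10 held 52.8 CPM, less than any other library. The call was lost without LKO 4, 12 or 13 (edgeR adjusted p = 0.126, 0.0638 and 0.103), without Fl/Fl 5, Fl/Fl 7 or both (0.210, 0.139 and 0.418) and with no sex term (0.648). Id2 was the 1 call among 18 tested SMAD and STAT factors and their targets (median log2 -0.12), against 1.41% of all tested genes. An unadjusted edgeR p under 0.05 was found for 6 of the 18, 1 higher and 5 lower, against 16.1% of all tested genes. The hepcidin-side genes Id1 and Smad7, named for their role, had log2 fold changes of 0.23 ± 0.29 and 0.07 ± 0.16 (edgeR adjusted p = 0.761 and 0.878). Id1 stood at 13.9 CPM in LKO 3, the library with the most Hamp, and at 5.77 to 8.38 CPM in the other LKO livers. In the female Fl/Fl livers Id1 stood at 6.06 to 8.22 CPM, highest in Fl/Fl 9, the library with the least Hamp. Fl/Fl 9 also held more Smad7 (16.8 CPM) than any other library, and a relation of these genes to Hamp was not tested. Tmprss6, the protease that cuts the BMP co-receptor hemojuvelin, was at 567 ± 11.2 CPM in LKO and 507 ± 39.6 CPM in female Fl/Fl (edgeR adjusted p = 0.398). Hemojuvelin itself, listed as Hfe2, was at 98.3 ± 13.3 CPM in LKO and 90.7 ± 5.48 CPM in female Fl/Fl (edgeR adjusted p = 0.663; SD, n = 4 and 3).

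None of 18 tested genes of iron transport, reduction and oxidation passed edgeR's test, and the median log2 was -0.06. An unadjusted p under 0.05 was found for 5 of these 18, against 16.1% of all tested genes, and the same share stands beside the counts of the next 3 lists. Scara5, a receptor for ferritin, was at 0.158 to 0.250 CPM in LKO and 0.320 to 0.587 CPM in female Fl/Fl, from 12 to 45 reads a library, and at 42.5 CPM in Fl/Fl 10 (edgeR adjusted p = 0.0511). Slc39a14, a zinc and iron importer of hepatocytes, was at 445 ± 33.1 CPM in LKO and 290 ± 74.5 CPM in female Fl/Fl (log2 0.62 ± 0.15, edgeR adjusted p = 0.0778; SD, n = 4 and 3). None of 19 tested genes of ferritin turnover, iron chaperones and iron sensing passed edgeR's test, 3 had an unadjusted p under 0.05 and the median log2 was 0.07. The hypoxia factor gene Epas1 was at 276 ± 27.2 CPM in LKO and 214 ± 37.4 CPM in female Fl/Fl (log2 0.37 ± 0.13, edgeR adjusted p = 0.190; SD, n = 4 and 3).

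None of 15 tested heme and haemoglobin salvage genes passed edgeR's test, 4 had an unadjusted p under 0.05 and the median log2 was 0.03. Cd163, the macrophage receptor for haemoglobin bound to haptoglobin, was at 26.1 ± 3.79 CPM in LKO and 16.7 ± 3.28 CPM in female Fl/Fl (edgeR adjusted p = 0.0667), and Hmox2, the constitutive heme oxygenase, at 38.2 ± 3.42 CPM in LKO and 29.3 ± 1.65 CPM in female Fl/Fl (edgeR adjusted p = 0.0876; SD, n = 4 and 3). None of 23 tested iron-sulphur cluster assembly genes passed edgeR's test, and the median log2 was 0.10. Fold changes were positive in 18 of the 23, against 49.5% of all tested genes, and the 5 with an unadjusted p under 0.05 were higher. The cluster carrier Nfu1 was at 29.3 ± 1.03 CPM in LKO and 24.3 ± 0.61 CPM in female Fl/Fl (edgeR adjusted p = 0.133), and Bola1 had a log2 fold change of 0.34 ± 0.12 (edgeR adjusted p = 0.207). With DESeq2, 6 genes of all the related lists were higher and 7 lower, among them Scara5 (adjusted p = 0.00224), Slc39a14 (0.00681), Cd163 (0.00581) and Hmox2 (0.0262), where DESeq2 called 6.24% of the genes to which it gave an adjusted p. With no filter edgeR also called Scara5 (adjusted p = 0.00537), Slc39a14 (0.0275) and Cd163 (0.00873), and without Fl/Fl 9 it called Slc39a14 (0.00216), Epas1 (0.0464) and Cd163 (0.0119). Without Fl/Fl 5 and 7 the log2 fold change was 0.24 for Slc39a14, 0.13 for Epas1 and 0.36 for Cd163.

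**Figure D4:**
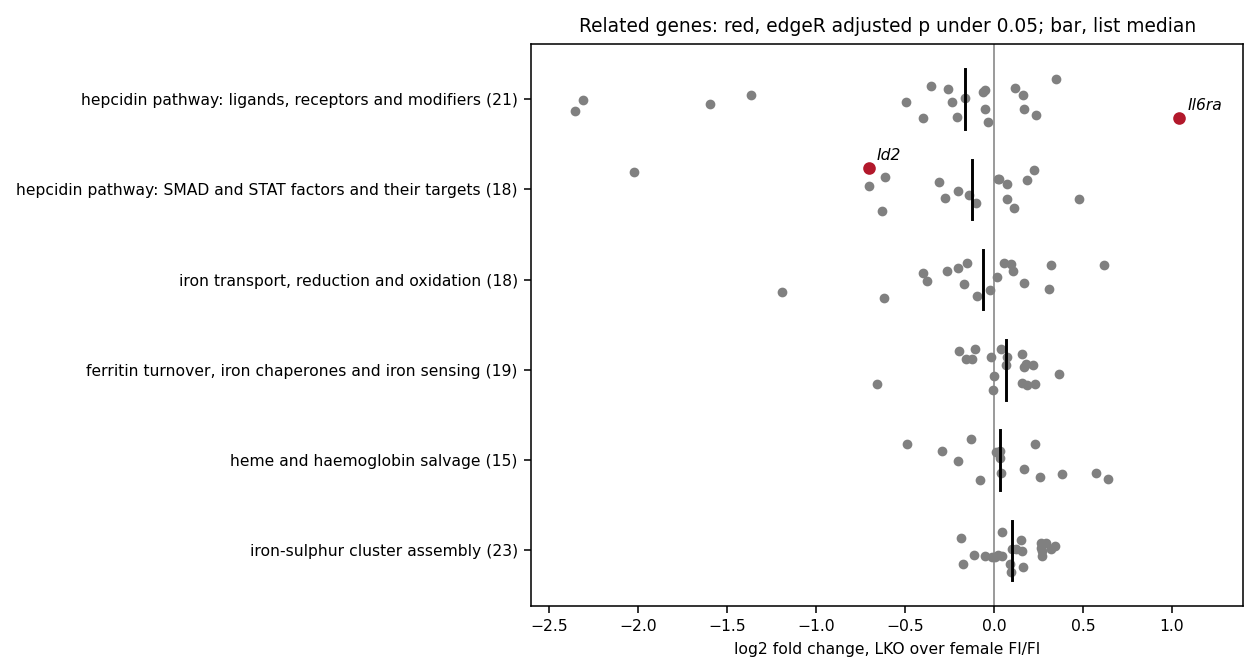
Log2 fold change of LKO over female Fl/Fl for tested genes of 6 lists of related iron functions, 1 point a gene, with the list's median as a bar and genes past an edgeR adjusted p of 0.05 in red. The red points are Il6ra at 1.04 and Id2 at -0.70, and the list medians lie between -0.17 and 0.10.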

How the data were processed

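RNA of 8 livers was sequenced after NEBNext Ultra library preparation, per the labels' protocols. The submitters' processing notes name the build mm10 and the tools STAR, fastp, featureCounts, HTSeq, edgeR, DESeq and DESeq2, with no roles; no source used here states the strand setting. The authors deposited whole-number read counts per gene, a signal column per library equal to its counts over a single size factor, and FPKM. Their deposited table also holds a log2 fold change, a p-value and an adjusted p-value per gene.

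The deposited counts were tested with edgeR 4.0.16 (R 4.3.3): filterByExpr by genotype, TMM scaling, and a robust quasi-likelihood fit of genotype and sex over all 8 libraries. The sex term absorbs the 1 male library, so the contrast is within females. SEs are the log2 fold change over the square root of F. The code was tested on simulated data. The labels name no litters or preparation days, so the p-values reflect only the spread between libraries, which may be technical. The closest libraries, Fl/Fl 5 and 7, differed by a chi-square of 32.0 per degree of freedom. Floors cover counting error only.

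The genes and lists were chosen with earlier results of these data known. Named are the 10 genes, Pkd1l1, each related gene past the threshold or else the 2 of smallest p in its list, the leading markers (Alb, Slc10a2 and Alas2 among them), Fos, Jun and Saa1. A gene that this rule names is not reported here. Id1, Smad7, Tmprss6, Hfe2, Socs3, Krt19 and Ftl1-ps1 were added outside that rule, after values were seen. Alternatives were no sex term, females alone, other scalings and filters, DESeq2 1.42.0, limma 3.58.1 voom and each library left out; leaving out both Fl/Fl 5 and 7 was added after seeing the data. Sequences are from RefSeq (GRCm38.p6) and GENCODE M21, matched by symbol.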

Additional observations from a re-analysis of the deposited data

Results flagged for a closer look

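In groups of 4 libraries, 3 of the 40 sets of values looked at held a library far from the other 3. For 4 like libraries chance gives about 1 in 20 such sets. Some of these genes were named for their test results, and Fl/Fl 10 is the only male, so that rate does not apply strictly here. The male library Fl/Fl 10 stood at 116.8 CPM of Il6ra, with the female Fl/Fl livers at 60.3 to 65.0 CPM. The same library stood at 42.5 CPM of Scara5, with the female Fl/Fl livers at 0.320 to 0.587 CPM. LKO 4 stood at 31.8 CPM of Cd163, with the other LKO livers at 23.7 to 24.7 CPM.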

How the results depend on the processing

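No paired analysis was possible because the genotypes share no replicate number. The number of the 10 iron genes past the threshold was 0 higher and 0 lower in each fit that left out 1 library. It was 1 higher with no filter and with DESeq2, Ftl1 both times, and 1 higher without Fl/Fl 5 and 7, Hamp2 (log2 2.77, adjusted p = 0.0361), a fit whose only female Fl/Fl library is Fl/Fl 9. Over all tested genes the main counts of 167 higher and 65 lower became 1 and 0 with no sex term, 320 and 142 with no filter, 570 and 315 with DESeq2, and 8 and 18 without Fl/Fl 5 and 7. With 1 library left out they ran from 2 to 476 higher and from 2 to 251 lower, both lowest without Fl/Fl 5 and highest without Fl/Fl 9. Among the related genes the main counts of 1 higher and 1 lower became 0 and 0 with no sex term, 5 and 2 with no filter, 6 and 7 with DESeq2, and 2 lower with limma voom; 0 were higher without Fl/Fl 5 and 7. With 1 library left out they ran from 0 to 8 higher and from 0 to 3 lower. Hamp, Hamp2, Ftl1, Trf and Slc40a1 kept their sign in each of the 17 other settings; Bmp6 and Fth1 did so in 16, and Hfe, Tfr2 and Tfrc in 15. With fewer samples or fewer tests the counts differ by construction, and the causes were otherwise not tested. Depth did not limit the 10 genes except Hamp2 in the male library.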
